A study of Mus musculus with 18 samples.

Results

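The liver serpins examined here are 9 genes of the mouse Serpina cluster on chromosome 12: the 5 near-identical copies Serpina1a, Serpina1b, Serpina1c, Serpina1d and Serpina1e, the related Serpina3k, Serpina3m and Serpina3n, and Serpina6. They were taken by gene symbol from the 24539 genes listed in each library, and all 9 passed the filter on low counts in every fit. Each control liver came from a wild-type male C57BL/6 mouse of 16 weeks given normal chow. HFD mice of the same strain, sex and age ate a high-fat diet for 8 weeks from 8 weeks of age, and HFD+LYC mice ate that diet with lycopene, a carotenoid of tomatoes. All 3 groups are wild-type and differ in diet alone, as far as the labels say. The 9 livers, 3 for each diet, gave 2 libraries apiece. One held poly(A) RNA of the whole liver (mRNA) and the other that of ribosome-nascent chain complexes (RNC), the RNA pelleted with translating ribosomes, so that 18 libraries were sequenced.

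Serpins are protease inhibitors that present a flexible reactive centre loop as bait: the protease cuts the loop, the serpin snaps shut, and both are trapped in one complex. Serpina1 genes encode α1-antitrypsin, which hepatocytes secrete into plasma and which restrains neutrophil elastase. Serpina3 genes encode relatives of α1-antichymotrypsin, and Serpina6 encodes corticosteroid-binding globulin, a serpin that carries glucocorticoid hormones instead of blocking a protease. In mice both inhibitor families have been duplicated, and the copies differ most in the loop that chooses the protease.

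The 5 Serpina1 copies lay within one stretch of the minus strand of chromosome 12 (GRCm38.p6), with Serpina1b at 103728156 to 103738189, Serpina1d at 103763587 to 103773633, Serpina1a at 103853295 to 103863619, Serpina1c at 103894926 to 103904950 and Serpina1e at 103946931 to 103956897. Their coding sequences were 96.3% to 98.5% identical over 10 pairs. The bases that code for the reactive centre loop and its flanks, in the last exon of each gene, are printed because they are the part in which the copies differ most, with each base that differs from Serpina1a in capitals:
Serpina1a: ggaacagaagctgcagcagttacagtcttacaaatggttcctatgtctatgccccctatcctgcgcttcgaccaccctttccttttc
Serpina1b: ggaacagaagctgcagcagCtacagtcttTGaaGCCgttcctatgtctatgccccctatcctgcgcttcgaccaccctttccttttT
Serpina1c: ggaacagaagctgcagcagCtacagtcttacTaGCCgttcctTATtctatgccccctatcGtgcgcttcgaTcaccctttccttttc
Serpina1d: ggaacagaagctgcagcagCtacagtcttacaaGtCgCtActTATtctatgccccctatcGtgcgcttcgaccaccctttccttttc
Serpina1e: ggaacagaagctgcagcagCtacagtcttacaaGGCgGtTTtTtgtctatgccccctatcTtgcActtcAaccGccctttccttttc
Against Serpina1a, the 87-base stretch differed at 7 bases in Serpina1b, 10 in Serpina1c, 9 in Serpina1d and 12 in Serpina1e. Over the 10 pairs of copies, 5.75% to 13.8% of bases differed in this stretch and 0.781% to 3.13% in the remaining 1152 coding bases. Every pair that held Serpina1e differed at 10 or 12 bases of the stretch, and Serpina1c and Serpina1d were the closest pair there, with 5.

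Serpina3k (104338486 to 104345739), Serpina3m (104387157 to 104394259) and Serpina3n (104406646 to 104414334) lay on the plus strand of the same chromosome, and their coding sequences were 82.9% to 91.7% identical. Their loop-coding stretches, in exon 5, are shown for comparison, with bases that differ from or are added to those of Serpina3k in capitals:
Serpina3k: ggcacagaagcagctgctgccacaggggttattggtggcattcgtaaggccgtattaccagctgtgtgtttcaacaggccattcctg
Serpina3m: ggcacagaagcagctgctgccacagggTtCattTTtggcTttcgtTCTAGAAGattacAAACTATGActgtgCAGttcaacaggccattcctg
Serpina3n: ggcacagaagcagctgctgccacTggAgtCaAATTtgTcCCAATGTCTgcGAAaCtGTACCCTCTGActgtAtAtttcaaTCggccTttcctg
Serpina3m differed from Serpina3k at 19 aligned bases and had 6 more, and Serpina3n at 31 with 6 more. The Serpina1 and Serpina3 coding sequences shared 56.7% to 59.1% of aligned bases, and Serpina6 (minus strand, 103646630 to 103657218) shared 51.9% to 53.9% with the other 8 genes.

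**Figure D1:**
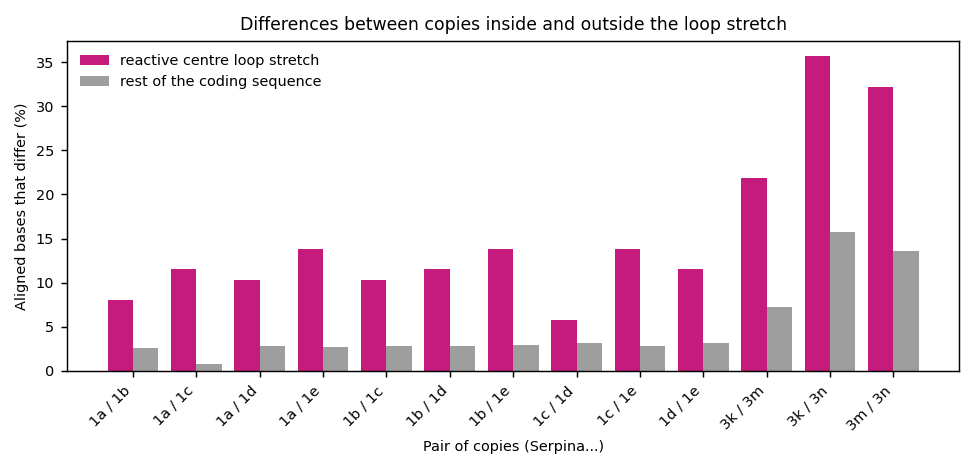
Percent of aligned coding bases that differ between 2 copies, for each pair within Serpina1 and within Serpina3, in the loop stretch (pink bars) and in the rest of the coding sequence (grey bars). The pink bar is the taller in all 13 pairs, and within Serpina1 the pink bars run from 5.75% to 13.8%.

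Near-identical copies can exchange reads, and no source used here says how such reads were assigned, so the counts of single Serpina1 copies are uncertain. The share of 100-base stretches found in no transcript of another gene was taken over the annotated transcript chosen for each serpin. It was 30.7% for Serpina1c, 50.1% for Serpina1a, 70.7% for Serpina1d, 73.6% for Serpina1b and 81.8% for Serpina1e. The shares were 95.1% for Serpina3k, 93.9% for Serpina3m, 99.8% for Serpina3n and 100% for Serpina6. Serpina1e was thus the copy with the most sequence of its own. Use of strand is not given either, so reads from an overlapping antisense gene could not be told apart.

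RefSeq promoter sequences (GRCm38.p6) were found for 6 of the 9 genes, the 5 Serpina1 copies and Serpina3n, and those of the Serpina1 copies held a shared block of 188 to 190 bases. The block is printed because the values of Serpina1e are set beside those of the other copies below, with each base that differs from Serpina1e in capitals:
Serpina1e: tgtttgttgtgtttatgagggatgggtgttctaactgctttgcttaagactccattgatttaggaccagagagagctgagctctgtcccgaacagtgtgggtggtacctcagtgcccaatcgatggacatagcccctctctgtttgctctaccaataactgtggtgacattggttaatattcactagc
Serpina1b: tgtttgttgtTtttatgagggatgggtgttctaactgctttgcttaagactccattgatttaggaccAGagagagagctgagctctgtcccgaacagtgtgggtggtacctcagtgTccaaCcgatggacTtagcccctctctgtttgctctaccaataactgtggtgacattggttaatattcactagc
Serpina1d: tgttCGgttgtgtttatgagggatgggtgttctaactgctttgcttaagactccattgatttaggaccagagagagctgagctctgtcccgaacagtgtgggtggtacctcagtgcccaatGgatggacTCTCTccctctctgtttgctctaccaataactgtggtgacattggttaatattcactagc
Serpina1a: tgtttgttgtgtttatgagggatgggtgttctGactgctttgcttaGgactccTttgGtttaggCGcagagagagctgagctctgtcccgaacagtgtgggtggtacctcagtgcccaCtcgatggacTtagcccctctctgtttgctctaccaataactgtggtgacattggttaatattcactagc
Serpina1c: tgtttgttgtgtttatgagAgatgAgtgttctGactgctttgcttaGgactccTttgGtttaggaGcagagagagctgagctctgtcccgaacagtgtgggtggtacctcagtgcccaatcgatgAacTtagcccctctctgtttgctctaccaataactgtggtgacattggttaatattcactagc
In Serpina1e it lay at chr12:103956960-103957147 (minus strand) and ended 63 bases before the annotated start, and in the other copies it ended 1 to 12 bases before it. Serpina1b differed from Serpina1e at 4 bases with 2 added, Serpina1d at 7 with 1 added, Serpina1a at 8 and Serpina1c at 9. The letters GTTAAT, part of an HNF1 site, occurred in all 5 blocks and in 7.1% of 32851 promoters of 300 bases. The letters TTGCNNAA, a C/EBP site, occurred in the 300-base promoters of all copies but Serpina1c and in 10.8% of all promoters. Within the printed block they occurred in Serpina1e, Serpina1b and Serpina1d, and not in Serpina1a or Serpina1c. The match of Serpina1a thus lies outside its block. TGTTCT, part of a glucocorticoid receptor site, occurred in all 5 copies, in Serpina3n and in 19% of all promoters. A match is a run of letters and not evidence of binding. The letters TTCNNNGAA, a STAT site held by 8.3% of all promoters, are not in these 6 windows. Both strands were searched in each case.

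Libraries held 4533729 to 12742436 counted reads. The mRNA, control RNC and HFD RNC libraries had reads from 13324 to 15332 genes. Only 8940 to 10037 genes were detected in RNC of HFD+LYC livers, and 70 to 112 genes had exactly 1 read, where RNC of the other livers had 614 to 861 such genes. HFD+LYC mRNA replicate 2 stood apart as well, with 189 genes at exactly 1 read and 7.68% of its reads in its 10 most abundant genes, against 652 to 798 genes and 14.3% to 22.7% in the other mRNA libraries. Levels are CPM, a count scaled to a common library size, after TMM scaling, which corrects totals for a few very abundant genes. In RNC of HFD+LYC replicates 1, 2 and 3 the factor was 0.428, 1.15 and 0.836, against 1.07 to 1.34 in the other RNC libraries, and leaving TMM out moved the median log2 change of all genes in HFD+LYC against HFD RNC from -0.29 to -0.87.

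In control livers the 9 serpins took 1.65% to 3.74% of mRNA reads and 4.06% to 5.24% of RNC reads. Per kilobase of transcript, Serpina1e stood highest in control mRNA at 5283 ± 2156 CPM per kb (SD, n = 3). It was followed by Serpina3k at 4502, Serpina1c at 3566, Serpina1a at 3539.9, Serpina1b at 2811 and Serpina1d at 1227 CPM per kb. Serpina6 at 70.5, Serpina3n at 59.7 and Serpina3m at 42.7 CPM per kb formed a low group. Of the steps between neighbours in this order, only that from Serpina1d to Serpina6 lay outside the spread of the 3 livers. In control RNC the order ran Serpina3k, Serpina1e, Serpina1a, Serpina1c, Serpina1b, Serpina1d, Serpina6, Serpina3m and Serpina3n, and the steps into Serpina1b, Serpina1d and Serpina6 did not overlap.

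Control mRNA replicate 2 held 2729 CPM of Serpina1a against 8724 and 6856 in replicates 1 and 3. The summed level of 10 hepatocyte markers, all of them detected, was the lowest of the controls in the same library, at 146294, 45949 and 102446 CPM in control replicates 1, 2 and 3. It was 67685, 80894 and 134166 CPM in HFD and 58329.7, 27022 and 110680.0 CPM in HFD+LYC mRNA, so the groups overlapped. Over the 9 mRNA libraries, the log2 levels of Serpina1a, Serpina1b, Serpina1c and Serpina1d correlated at r = 0.837 to 0.973 in pairs, and those of Serpina1e with each of them at 0.120 to 0.332. Over the 9 RNC libraries the values were 0.931 to 0.989 and 0.487 to 0.623. These are descriptions over libraries that share their scaling and, for near-identical copies, possibly reads.

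**Figure D2:**
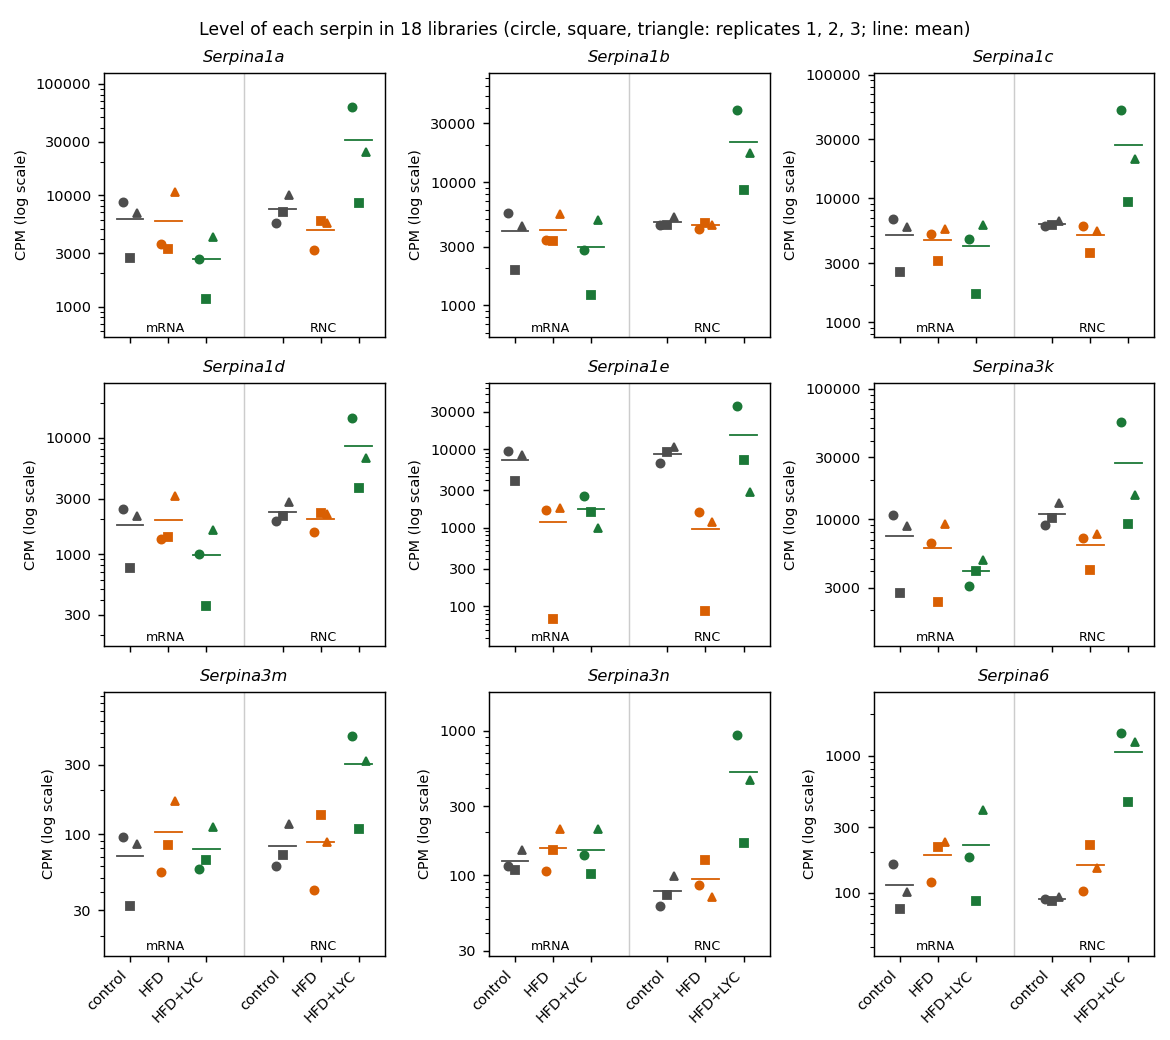
CPM of each of the 9 serpins in 18 libraries on a log axis, by diet and library kind, with 1 point per liver and a line at the mean of 3. Serpina1e is lower in HFD than in control livers in both library kinds, and the HFD+LYC RNC points lie highest for most genes, with replicate 1 on top in all 9 panels.

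Serpina1e was the serpin that differed most between HFD and control livers. In mRNA it stood at 9513, 3903 and 8344 CPM in control replicates 1, 2 and 3 and at 1675, 68.4 and 1795 CPM in HFD replicates 1, 2 and 3. Every HFD liver lay below every control liver, and HFD replicate 2 was by far the lowest. In bulk RNA, fewer cells of a type and less RNA per cell cannot be told apart. The mean was 6.15-fold lower (log2 change -2.62 with SE 0.908, unadjusted p = 0.0141, adjusted p = 1.00 by edgeR's quasi-likelihood test over 12664 genes). The difference therefore did not pass the test over all genes, where 0.0158% were called, 0% lower, and 3.46% had no overlap in the lower direction. In mRNA 1 of 9 serpins, Serpina1e, had no overlap. Leaving out HFD replicate 2 gave a log2 fold change of -2.06. DESeq2 gave an adjusted p of 0.136.

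The RNC libraries of the same livers repeated the order. Serpina1e stood at 6604, 9108 and 10583 CPM in control and 1609, 86.1 and 1173 CPM in HFD RNC replicates 1, 2 and 3. HFD replicate 2 was again the lowest by far, and the groups did not overlap. The mean was 9.17-fold lower (log2 change -3.20 with SE 1.10, unadjusted p = 0.0166, adjusted p = 1.00, edgeR), and again this was not called. In this comparison 0.00858% of 11660 genes were called and 7.2% had no overlap in the lower direction. The log2 fold change was -3.80 without HFD replicate 1 and -2.66 without HFD replicate 2. DESeq2 gave an adjusted p of 0.150.

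As a share of the reads of the 5 Serpina1 copies, which needs no scaling between libraries, Serpina1e gave 28.7%, 32.9% and 30.2% in control mRNA. HFD mRNA gave 11%, 0.609% and 6.71%, and HFD+LYC mRNA 18.6%, 26.4% and 5.59%. The RNC shares were 27.0%, 31.6% and 30.1% for controls, then 9.72%, 0.521% and 6.19% under HFD, and 17.4%, 19.4% and 3.95% once lycopene was added. Control livers lay within a narrow band, and all 6 livers on a high-fat diet lay below it in both library kinds. The 2 libraries of a liver gave like shares, with HFD replicate 2 under 1% in both and HFD+LYC replicate 3 lowest of its group in both. A two-sided exact permutation test of 3 livers against 3 cannot go below p = 0.1. Serpina1e rested on 601 reads in HFD mRNA replicate 2 and 1360 in the RNC library of that liver, against 28321 to 72445 in control mRNA and 74906 to 136377 in control RNC.

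**Figure D3:**
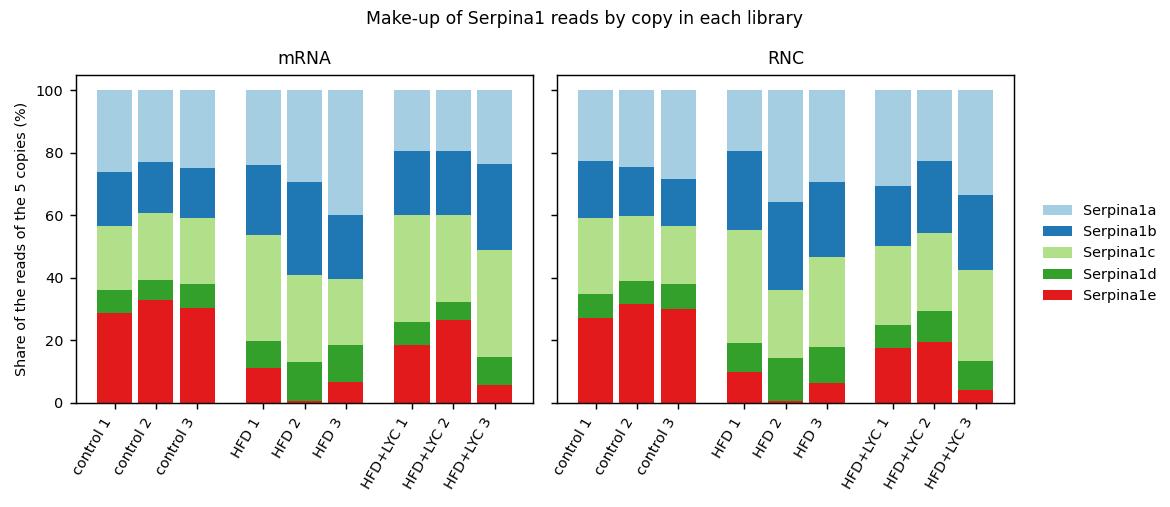
Share of the reads of the 5 Serpina1 copies (%) given by each copy, with 1 bar per library, for mRNA (left) and RNC (right). The red segment, Serpina1e, spans 27.0% to 32.9% of the bar in control libraries and 0.521% to 11% in HFD libraries.

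The HFD against control log2 fold changes of the other 4 copies in mRNA were -0.060 for Serpina1a, 0.028 for Serpina1b, -0.13 for Serpina1c and 0.15 for Serpina1d, with SE from 0.567 to 0.649 and adjusted p = 1.00 each (edgeR). Summed without Serpina1e they stood at 23669.8, 7957 and 19245 CPM in control and 13555, 11167 and 24949 CPM in HFD mRNA, ranges that overlapped. In RNC the same sum was 17887, 19733 and 24620.3 CPM in control and 14946, 16441 and 17770.0 CPM in HFD, with every HFD liver below every control liver. The largest of the 4 differences in RNC was that of Serpina1a (log2 change -0.63 with SE 0.632, adjusted p = 1.00). With the copies summed to 1 gene before the fit, total Serpina1 had a log2 fold change of -0.45 (SE 0.599, adjusted p = 1.00) in mRNA and -0.77 (SE 0.563, adjusted p = 1.00) in RNC. Whether the change of Serpina1e differed from that of another copy was not tested.

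Serpina3k, the most abundant of the Serpina3 genes in liver, stood at 10736, 2744 and 8834 CPM in control and 6539, 2340.0 and 9227 CPM in HFD mRNA, and the groups overlapped. In RNC it stood at 9071, 10168 and 13443 CPM in control and 7223, 4111 and 7771 CPM in HFD, with all HFD livers lower (log2 change -0.77 with SE 0.621, adjusted p = 1.00, edgeR). Serpina3n, an inhibitor that rises in many tissues under inflammation, stood at 116, 108 and 149 CPM in control and 107, 148 and 208 CPM in HFD mRNA (log2 change 0.31 with SE 0.366, adjusted p = 1.00). Serpina3m stood at 70.9 ± 33.9 and 103 ± 59.5 CPM (SD, n = 3; log2 change 0.54 with SE 0.494, adjusted p = 1.00). For both genes the HFD and control livers overlapped in both library kinds. Serpina6, the glucocorticoid carrier, stood at 163, 76.8 and 101 CPM in control and 119, 214 and 235 CPM in HFD mRNA, which overlapped. In RNC it stood at 90.0, 87.7 and 92.7 CPM in control and 102, 225 and 152 CPM in HFD, and every HFD liver was higher (log2 change 0.83 with SE 0.427, unadjusted p = 0.0829, adjusted p = 1.00). In HFD RNC, 6.97% of all genes had no overlap in the higher direction.

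No serpin of the 9 was called in HFD against control in either library kind, by edgeR or DESeq2. Unadjusted p-values under 0.05 were found for Serpina1e alone in each, against 358 genes of 12664 in mRNA and 214 of 11660 in RNC. Across the 9, 5 lay above and 4 below control in mRNA with a median log2 change of 0.03, and 3 above and 6 below in RNC with a median of -0.18. The medians of all genes tested were -0.01 and 0.01.

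With lycopene added to the high-fat diet, mRNA of the serpins was not called different from HFD livers for any of the 9, where 2.91% of 12664 genes were called by edgeR. None of the 9 had an unadjusted p under 0.05, and DESeq2 called 0. Serpina1e stood at 2560.2, 1584 and 992 CPM in HFD+LYC mRNA replicates 1, 2 and 3. These values overlapped HFD (log2 change 0.54 with SE 0.857, adjusted p = 0.713, edgeR), and the difference changed sign without HFD replicate 2, at a log2 fold change of -0.022. All 3 lay below every control liver (log2 change -2.08 with SE 0.890, unadjusted p = 0.0379, adjusted p = 0.184). In HFD+LYC against control mRNA 5.54% of genes were called, 0 of the 9 serpins among them by edgeR or DESeq2 and Serpina1e alone with an unadjusted p under 0.05, and 13.7% had no overlap in the lower direction.

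Serpina1a stood at 2672, 1176 and 4171 CPM in HFD+LYC mRNA, against 3622, 3303 and 10641 CPM in HFD and 8724, 2729 and 6856 CPM in control mRNA. Its log2 fold change was -1.13 against HFD (SE 0.657, adjusted p = 0.304) and -1.19 against control (SE 0.658, adjusted p = 0.292). The 3 groups overlapped, and HFD+LYC replicate 2, which stood apart in genes with 1 read, was the lowest library. Without it the log2 fold change of Serpina1a was -0.77 against HFD and -0.84 against control. Serpina1d stood at 1001, 355 and 1598 CPM, again with replicate 2 lowest, and Serpina3k at 3088, 3996 and 4901 CPM. Against control, Serpina1d had a log2 fold change of -0.85 with that library and -0.45 without it. Against HFD, that of Serpina1c was -0.16 with it and 0.22 without it. Without it 0 serpins were called in mRNA against HFD or control. Against HFD, 7 of the 9 serpins lay lower and Serpina1e and Serpina6 higher, with a median of -0.38 beside -0.04 for all genes. The hepatocyte markers in these libraries had 8 of 10 members below HFD, 0 of them called, and a median of -0.41. Their part in the serpin values was not tested.

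Ribosome-bound RNA of the serpins was higher in HFD+LYC than in HFD livers for all 9 genes, and all 9 were called (edgeR, adjusted p = 0.00307 to 0.0458). Of 11660 genes 9.34% were called higher, and of 1751 genes that averaged 50 CPM or more 23.8% were. That average was over all 9 RNC libraries, HFD+LYC included. Genes high in HFD+LYC alone can therefore enter, which can raise the 23.8%. Among all genes 1089 were called higher and 2031 lower, and without TMM scaling 324 higher and 2347 lower. The rise rests on the 3 RNC libraries that stood apart in genes detected, and replicate 1 was the highest library for each serpin.

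Serpina1a stood at 62103, 8445 and 24150.2 CPM in HFD+LYC RNC replicates 1, 2 and 3 and at 3219.9, 5903 and 5571 CPM in HFD RNC. All HFD+LYC livers were higher, by 6.44-fold in the mean (log2 change 2.69 with SE 0.670, adjusted p = 0.0149, edgeR). Serpina1b stood at 38376, 8598 and 17232 CPM against 4161, 4661 and 4531 CPM, 4.81-fold higher (log2 change 2.27 with SE 0.505, adjusted p = 0.00883). For Serpina1c the values were 51394, 9302 and 21003 against 6010.1, 3619.6 and 5450.5 CPM (log2 change 2.44 with SE 0.576, adjusted p = 0.0115). For Serpina1d they were 14869.9, 3720.4 and 6647 against 1555, 2257 and 2218 CPM (log2 change 2.07 with SE 0.492, adjusted p = 0.0119). In these 4 copies replicate 2 was the lowest HFD+LYC library and still lay above every HFD library. Serpina1e stood at 35209.8, 7255 and 2843 CPM against 1609, 86.1 and 1173 CPM, the largest difference of the 9 at 15.8-fold (log2 change 3.98 with SE 1.14, adjusted p = 0.0283). Its lowest HFD+LYC liver was replicate 3 and not replicate 2, and its highest library exceeded its lowest by a larger factor than in the other 4 copies.

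Serpina3k stood at 55968, 9235 and 15288 CPM in HFD+LYC RNC against 7223, 4111 and 7771 CPM in HFD RNC, with no overlap (log2 change 2.07 with SE 0.642, adjusted p = 0.0392, edgeR). Serpina3m stood at 477, 109 and 321 against 41.5, 136 and 87.7 CPM and was the 1 serpin whose groups overlapped (log2 change 1.77 with SE 0.572, adjusted p = 0.0458). Serpina3n stood at 927, 168 and 457 against 85.1, 128 and 70.6 CPM, with no overlap (log2 change 2.45 with SE 0.549, adjusted p = 0.00903). Serpina6 stood at 1455, 460.2 and 1252 against 102, 225 and 152 CPM and had the smallest adjusted p of the 9 (log2 change 2.72 with SE 0.451, adjusted p = 0.00307). For 8 of the 9 serpins the groups did not overlap, where 13.3% of all genes had no overlap in that direction. The median log2 change of the 9 was 2.44, beside -0.29 for all genes. With the 5 copies summed to 1 gene, so that reads exchanged among them do not matter, Serpina1 stood at 201953, 37321 and 71875 CPM in HFD+LYC and 16555, 16527 and 18943 CPM in HFD RNC. The sum was called higher (log2 change 2.58 with SE 0.594, adjusted p = 0.0102).

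Leaving out single livers changed several of these calls. Without HFD+LYC replicate 1, 6 serpins were called against HFD and the log2 fold changes fell to 0.96 for Serpina3k (adjusted p = 0.0691), 1.29 for Serpina3m (adjusted p = 0.110), 1.38 for Serpina1d, 1.55 for Serpina1b, 1.60 for Serpina1c, 1.73 for Serpina3n, 1.74 for Serpina1a, 2.41 for Serpina1e (adjusted p = 0.0709) and 2.43 for Serpina6. The number called was 4 without HFD replicate 1, 5 without HFD replicate 2 or 3, 7 without any 1 control liver, 8 without HFD+LYC replicate 3 and 9 without HFD+LYC replicate 2. Without HFD replicate 1 the log2 fold change of Serpina1e was 4.57 (adjusted p = 0.0581). Serpina1b, Serpina3n and Serpina6 were called in each of these 9 fits. Among all genes, 2107 to 4633 were called in these fits in either direction, the most without HFD+LYC replicate 2. A fit of the 6 libraries compared called 4 serpins, and without TMM scaling 7 were called. The log2 fold changes without TMM were 1.65 for Serpina1a, 1.33 for Serpina1b, 1.48 for Serpina1c, 1.14 for Serpina1d, 2.97 for Serpina1e, 1.06 for Serpina3k, 0.86 for Serpina3m, 1.47 for Serpina3n and 1.89 for Serpina6.

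Against control RNC, which shares the HFD+LYC libraries with the comparison above, 7 of 9 serpins were called higher, where 9.23% of all genes were, and 5 had no overlap, where 14.1% of genes had none. Serpina6 had the largest difference, 1455, 460.2 and 1252 CPM against 90.0, 87.7 and 92.7 CPM in control RNC, or 11.7-fold (log2 change 3.55 with SE 0.468, adjusted p = 9.55e-04, edgeR). Serpina3n followed at 6.70-fold (log2 change 2.75 with SE 0.556, adjusted p = 0.00617). The 4 copies Serpina1a to Serpina1d were 3.70 to 4.52-fold higher. Without HFD+LYC replicate 1 the log2 fold changes were 1.11 for Serpina1a (adjusted p = 0.0999), 1.46 for Serpina1b, 1.31 for Serpina1c, 1.20 for Serpina1d, 1.37 for Serpina3m (adjusted p = 0.0906), 2.03 for Serpina3n and 3.26 for Serpina6. Without TMM scaling they were 1.17, 1.36, 1.28, 1.10, 1.11, 1.92 and 2.86 in the same order. Serpina1e (log2 change 0.78 with SE 1.02, adjusted p = 0.631) and Serpina3k (log2 change 1.30 with SE 0.628, adjusted p = 0.167) were not called, and Serpina1e reversed to -0.79 without HFD+LYC replicate 1 and to -0.17 without TMM scaling. Among all genes 1076 were called higher and 1996 lower, and without TMM scaling 377 higher and 2122 lower. The number of serpins called was 2 without control replicate 1 or 2, 4 without control replicate 3, 5 without HFD replicate 3 or HFD+LYC replicate 1 or 3, 6 without HFD replicate 1 or 2 and 8 without HFD+LYC replicate 2. It was 3 in the fit of the 6 libraries compared. Among all genes, 2103 to 4605 were called with 1 liver left out, in either direction, the most without HFD+LYC replicate 2.

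**Figure D4:**
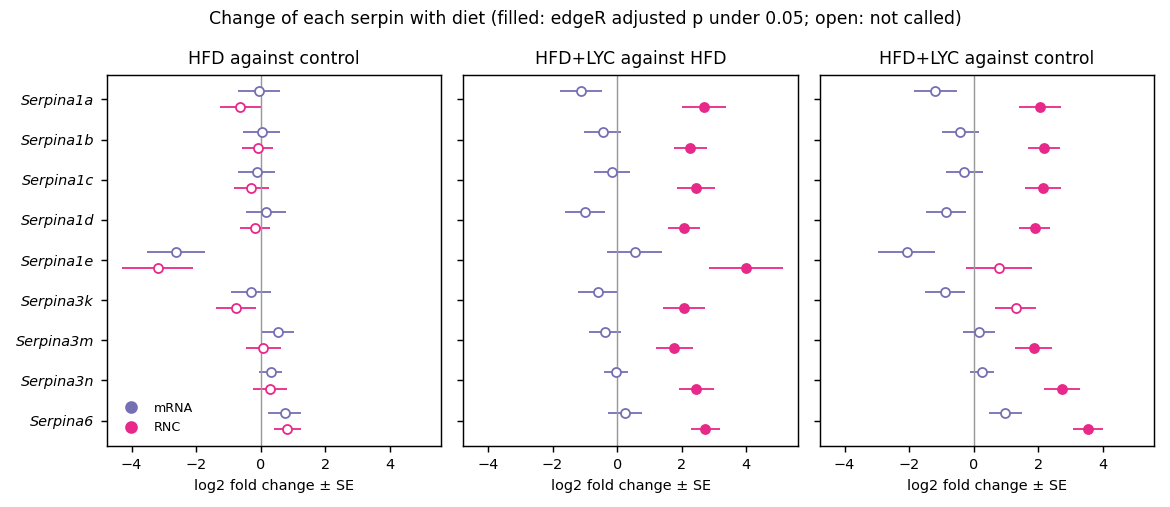
log2 fold change ± SE of each serpin for 3 pairs of diets, in mRNA (purple) and RNC (pink), from edgeR fits of 9 libraries per kind. Filled points have an adjusted p under 0.05; they occur only in RNC, for 9 serpins in HFD+LYC against HFD and 7 in HFD+LYC against control, and Serpina1e stands apart on the left in HFD against control.

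Several cell markers moved in the same 3 RNC libraries. The 10 hepatocyte markers summed to 483165, 144303 and 258038 CPM in HFD+LYC RNC replicates 1, 2 and 3, against 90139 to 121251 CPM in HFD and 108589 to 128609 CPM in control RNC, with 5 of 10 called higher against HFD and 0 at 0 reads. Of genes that averaged 50 CPM or more, HFD+LYC libraries included, 23.8% were called higher. The replicate order 1, 3, 2 of the hepatocyte sum was that of Serpina1a. Of 10 Kupffer cell markers 4 were called lower, and their sum was 147 to 204 CPM against 275 to 487 CPM in HFD. Among all 11660 genes 9.34% were called higher and 17.4% lower, the share to set beside each count of markers called lower. In other lists 2 of 10 endothelial, 3 of 10 stellate and 2 of 3 tested lymphocyte markers were called lower, and 2 of 5 erythroid higher. The 2 lymphocyte genes, Cd79a and Cd79b, averaged 1.29 and 1.51 CPM in HFD RNC and 0 in HFD+LYC RNC. Those levels are close to the floor, as 3 reads made 0.265 to 0.662 CPM in the HFD+LYC RNC libraries before TMM scaling. Of 3 tested cholangiocyte markers 1 was called higher and 1 lower. Of 3 neutrophil and 2 acinar markers tested 0 were called. Of 10 muscle markers 1 was tested, the giant muscle protein gene Ttn, which was called higher. Their sum was 28.1 to 61.7 CPM against 0.443 to 1.11 CPM in HFD, and Ckm, Myh1, Myh2, Myh4, Tnnt3, Tnnc2, Mylpf and Actn3 were at 0 in all 3 HFD+LYC RNC libraries. All of these genes but Mylpf were also at 0 in all 3 HFD RNC libraries. The neutrophil markers Ngp, Camp, Elane, Retnlg, Ly6g and Mpo were at 0 in all 3 HFD+LYC RNC libraries. Camp and Ly6g were also at 0 in all 3 HFD RNC libraries, and Ly6g and Mpo in all 3 control RNC libraries. As shares of library reads, without any scaling, the 9 serpins took 11.1%, 5.44% and 7.45% in HFD+LYC RNC and 2.73% to 3.10% in HFD RNC. The part of these markers in the serpin values was not tested.

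The RNC to mRNA ratio of a liver was taken in CPM of a fit of all 18 libraries. It is a relative value between 2 library kinds and not the fraction of a message that was ribosome-bound. The fit held no term for the liver, so its p-values treat the 2 libraries of a liver as independent. In control livers all 9 serpins had a higher mean in RNC than in mRNA, by 2.82-fold for Serpina3k down to 1.20-fold for Serpina3n, and 8 had no overlap, where 25.2% of 12872 genes had none in that direction. None was called (edgeR, adjusted p = 0.156 to 0.755), and 0.0155% of all genes were called higher. Serpina1d and Serpina3k had an unadjusted p under 0.05, and DESeq2 called 0 of the 9. Without TMM scaling, Serpina3n at -0.47 and Serpina6 at -0.064 on the log2 scale lay below mRNA, with a median of -0.80 for all genes. With the liver as a block, which the shared animal codes of the 2 libraries allow, 2 genes were called in place of 274. In HFD against control no ratio was called (0% of genes by edgeR, with unadjusted p under 0.05 for 20, and 1 gene by DESeq2). The serpins' log2 differences ran from -0.56 for Serpina1a and Serpina1e to 0.099 for Serpina6.

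In HFD+LYC livers the mean ratio was higher than in HFD and control livers for every serpin. Serpina1a had RNC to mRNA ratios of 43.5, 13.3 and 10.8 in HFD+LYC replicates 1, 2 and 3. HFD livers had 1.76, 3.50 and 1.01 and control livers 1.24, 5.15 and 2.79. The HFD+LYC livers lay above all others, and the change of its ratio against HFD was the largest of the 9 (log2 change 3.76 with SE 0.992, adjusted p = 0.0144, edgeR). Serpina1d had ratios of 27.8, 19.4 and 7.75 in HFD+LYC and 2.29, 3.13 and 1.36 in HFD livers (log2 change 3.00 with SE 0.855, adjusted p = 0.0221). Serpina6 had 14.8, 9.68 and 5.80 and 1.69, 2.05 and 1.25 (log2 change 2.41 with SE 0.739, adjusted p = 0.0321). Serpina3n, the serpin with the lowest mean ratio in control livers, had 12.6, 3.07 and 4.06 and 1.57, 1.69 and 0.658 (log2 change 2.44 with SE 0.680, adjusted p = 0.0196). In each of these 4 genes the HFD+LYC and HFD livers did not overlap.

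Against HFD, 6 of 9 ratios were called higher, those of Serpina1a, Serpina1b, Serpina1c, Serpina1d, Serpina3n and Serpina6, where 3.42% of 12872 genes were, and 8 had no overlap, where 8.03% of genes had none. Against control 5 were called, the same without Serpina1c, where 2.77% were, and 7 had no overlap, where 6.91% of genes had none. These comparisons share the HFD+LYC libraries. The ratios of Serpina1e (log2 change 3.38 with SE 1.46, adjusted p = 0.128), Serpina3k (adjusted p = 0.0634) and Serpina3m (adjusted p = 0.0894) were not called against HFD. With the liver as a block Serpina1e was called against HFD (adjusted p = 0.0371) and Serpina1c against control (adjusted p = 0.0428). Among all genes 440 ratios were called higher and 1676 lower against HFD, and without TMM scaling 151 and 2327; against control the counts were 357 and 1549, and 131 and 2114. Without TMM scaling 4 serpin ratios were called in each.

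No serpin ratio was called against either diet without HFD+LYC replicate 1, where that of Serpina1a was 2.80 against HFD (adjusted p = 0.0696) and 2.24 against control (adjusted p = 0.150). Against HFD the other ratios called with all livers were then 1.87 for Serpina1b, 1.78 for Serpina1c, 2.30 for Serpina1d, 1.65 for Serpina3n and 1.98 for Serpina6. Against HFD, 0 were called without HFD replicate 3, 2 without HFD replicate 1 or 2, 3 without control replicate 3, 5 without control replicate 1 or 2, 6 without HFD+LYC replicate 3 and 8 without HFD+LYC replicate 2. Against control, 0 were called without any 1 control liver, 2 without HFD replicate 1 or 2, 3 without HFD replicate 3 and 6 without HFD+LYC replicate 2 or 3. All 9 ratios kept a value above 0 in these fits. Among all genes, 1289 to 2931 ratios were called against HFD and 1121 to 2734 against control, in either direction.

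**Figure D5:**
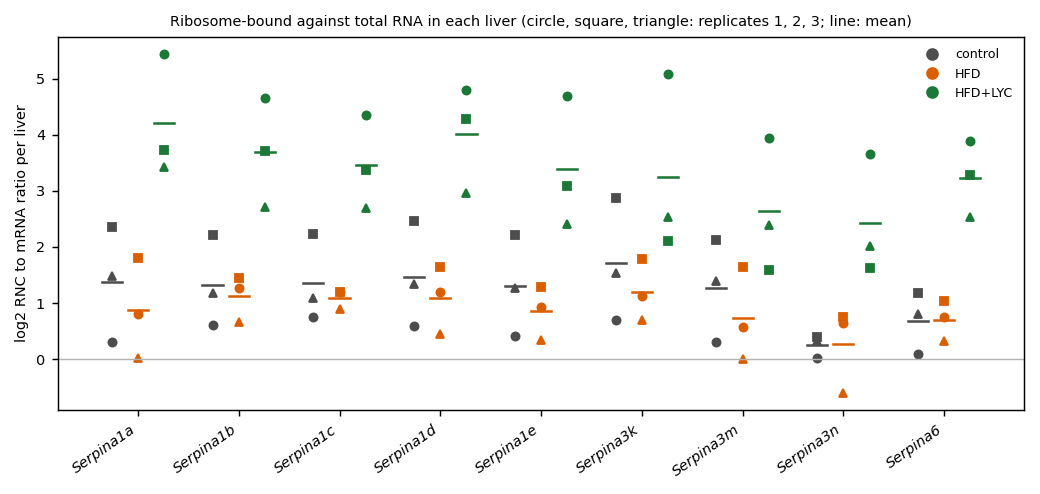
log2 RNC to mRNA ratio of each serpin in each liver, from CPM of the 18-library fit, by diet (grey control, orange HFD, green HFD+LYC), with 1 point per liver and a line at the mean of 3. The green points lie above the orange and grey ones for most serpins, and HFD+LYC replicate 1 (circle) is the highest point of every gene.

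Other secreted serpins of the liver were counted in the same way. Of 12 listed, 11 were tested, with 0 called in HFD against control in either library kind. In HFD+LYC against HFD RNC, 8 of 11 were called higher and 1 lower. Of all genes 9.34% were called higher there, and of genes that averaged 50 CPM or more, HFD+LYC libraries included, 23.8%. The median of the list was 1.69, beside -0.29 for all genes. Serpinc1, antithrombin, stood at 5299 ± 4265 against 1234 ± 37.5 CPM (SD, n = 3; log2 change 2.10 with SE 0.540, adjusted p = 0.0170, edgeR). Serpinf1, the pigment epithelium-derived factor, stood at 1978 ± 1444 against 302 ± 21.5 CPM (log2 change 2.71 with SE 0.512, adjusted p = 0.00484). Serpina7, thyroxine-binding globulin, was the 1 that fell, from 137 ± 34.7 to 76.5 ± 18.4 CPM (log2 change -0.84 with SE 0.268, adjusted p = 0.0440). In mRNA Serpina7 stood at 59.3 ± 15.7 CPM in control, 151 ± 40.2 CPM in HFD and 44.5 ± 29.6 CPM in HFD+LYC livers, with HFD above both other groups without overlap and neither difference called (adjusted p = 1.00 and 0.0610). Of the remaining genes of the Serpina cluster, 15 were listed and 7 were tested in mRNA, and Serpina1f and Serpina16 were at 0 reads in every library. In HFD+LYC against HFD RNC, 2 of 6 tested were called higher, Serpina10 and Serpina11, both of which are also in the list above.

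Serine proteases that such serpins or their relatives can meet in plasma were counted next. Of 16 listed, 13 were tested in mRNA, and Elane, neutrophil elastase, was not. In HFD against control mRNA 11 of 13 lay below control with a median of -0.28, and 0 were called. In HFD+LYC against HFD RNC, 8 of 12 were called higher, beside the same 23.8%, among them prothrombin F2 (log2 change 2.01 with SE 0.512, adjusted p = 0.0165, edgeR), F10 (log2 change 2.74 with SE 0.501, adjusted p = 0.00442) and plasma kallikrein Klkb1 (log2 change 1.89 with SE 0.236, adjusted p = 6.84e-04). Klkb1 was also the 1 protease of 13 called in HFD+LYC against HFD mRNA, where 2.91% of all genes were called in either direction. It stood there at 651 ± 128 against 189 ± 29.9 CPM (log2 change 1.79 with SE 0.329, adjusted p = 0.0204, edgeR).

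Genes that fold, sort or degrade secretory proteins such as α1-antitrypsin numbered 26, all tested. None was called in HFD against control or in HFD+LYC against HFD mRNA. In HFD+LYC against HFD RNC 8 were called higher and 0 lower, beside 23.8% of genes that averaged 50 CPM or more, with a median of 0.48, among them the chaperone Calr (log2 change 2.39 with SE 0.519, adjusted p = 0.00781, edgeR), the lectin Os9 (log2 change 2.82 with SE 0.486, adjusted p = 0.00366) and the cargo receptor Surf4 (log2 change 1.06 with SE 0.243, adjusted p = 0.00935). Their median lay below the 2.44 of the 9 serpins, a difference that was not tested.

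Genes of 4 signalling and regulatory lists, response genes among them, were counted next, and their action on the serpins was not tested. In HFD+LYC against HFD mRNA 2.91% of all genes were called in either direction. Growth hormone signalling, which sets several sex-biased liver genes in mice, had 7 of 8 tested genes below control in HFD mRNA with a median of -0.33, and 0 called; Stat5a stood at 20.3 ± 2.98 against 42.6 ± 32.2 CPM (adjusted p = 1.00). Of 13 IL-6 and STAT3 genes, which drive acute phase transcription, 3 were called higher in HFD+LYC against HFD mRNA: Cebpb (log2 change 2.97 with SE 0.356, adjusted p = 0.00347, edgeR), Cebpd (log2 change 1.74 with SE 0.341, adjusted p = 0.0259) and the kinase gene Pim3 (log2 change 2.70 with SE 0.431, adjusted p = 0.0131). Of 11 tested glucocorticoid-responsive genes 2 were called higher there, Fkbp5 at 145 ± 31.2 against 15.2 ± 2.24 CPM (log2 change 3.25 with SE 0.333, adjusted p = 0.00146) and Zbtb16 (log2 change 2.43 with SE 0.551, adjusted p = 0.0404), with a median of 1.50 beside -0.04 for all genes. Serpina6, which binds glucocorticoids in plasma, had 183, 87.7 and 402 CPM in the same mRNA libraries and was not called (log2 change 0.24 with SE 0.520, adjusted p = 0.790). Of 12 hepatocyte transcription factors 0 were called in that comparison. Of 25 tested acute phase genes 0 were called in HFD against control or HFD+LYC against HFD mRNA and 6 were called higher in HFD+LYC against HFD RNC. That count is near the 23.8% called higher among genes that averaged 50 CPM or more, HFD+LYC libraries included. Of all genes 9.34% were called higher there. Haptoglobin Hp stood there at 14713 ± 9834 against 1847 ± 389.8 CPM (log2 change 2.99 with SE 0.517, adjusted p = 0.00370).

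Likeness of log2 mRNA levels was measured as Pearson r over the 9 mRNA libraries, with all Serpina genes but Serpina7 left out as matches. The genes most like each serpin were found among 8295 genes that averaged 10 CPM or more. For Serpina1e they were Tspan33 (r = 0.948), Tirap (0.900) and Zfp36l2 (0.899). For Serpina1d they were Nqo2 (0.995), the serpin gene Serpinf1 (0.990) and Ndfip1 (0.990). The closest was Mrps18b for Serpina3k (0.957). Among the genes compared, Serpina1e thus had the lowest best match of the 9. Over the 9 RNC libraries the same pairs had r = 0.727 for Tspan33, 0.983 for Serpinf1, -0.830 for Nqo2 and -0.745 for Mrps18b. These values describe 9 libraries that share depth and scaling.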

How the data were processed

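Livers were sequenced as mRNA and as RNC libraries, 3 livers per diet, 18 libraries in all, and separate animals are named by a code in each file name, which the 2 libraries of a liver share. Read counts per gene were deposited by the authors, beside RPKM values that were used here only as a check of the columns. Per the series' design text reads were mapped to RefSeq RNA, and mm10 and bcl2fastq are named in the submitters' processing notes. No source used here gives the aligner, the handling of reads shared by near-identical copies or the use of strand.

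Counts were fitted with edgeR 4.0.16 in R 4.3.3 (filterByExpr with a minimum count of 10 and minimum total of 15, TMM scaling, robust quasi-likelihood test, two-sided, Benjamini-Hochberg over all genes, called under 0.05). Separate fits held 9 mRNA libraries (12664 genes) and 9 RNC libraries (11660), and 1 fit of 18 libraries (12872) tested the ratio as an interaction. That last fit held no term for the liver. Alternatives were RLE size factors, DESeq2 1.42.0, no filter, summed Serpina1 copies, a replicate block, the 6 libraries compared and leaving out each liver; library totals without TMM were added after seeing the data. The members and gene lists were chosen with earlier results of these data known; of each list, genes named are among those called or, where none was, among the 3 with the smallest p, and likeness names come from the 3 highest r. Coding sequences of Serpina1 and Serpina3 were aligned with MAFFT 7.526.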

Additional observations from a re-analysis of the deposited data

Results flagged for a closer look

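The change with diet differed between the 2 library kinds for 6 serpins in HFD+LYC against HFD and for 5 in HFD+LYC against control, by the interaction term of the 18-library edgeR fit. As log2 changes of the RNC to mRNA ratio against HFD, the values were 3.76 for Serpina1a, 2.65 for Serpina1b, 2.53 for Serpina1c, 3.00 for Serpina1d, 2.44 for Serpina3n and 2.41 for Serpina6. Against control they were 3.20 for Serpina1a, 2.55 for Serpina1b, 2.68 for Serpina1d, 2.43 for Serpina3n and 2.51 for Serpina6. In each case RNC was higher in HFD+LYC livers while the mRNA difference was not called. None of the 11 was called without HFD+LYC replicate 1, and the 3 HFD+LYC RNC libraries had reads from 8940 to 10037 genes. The part of these libraries' detection in the values was not tested.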

How the results depend on the processing

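Genes called in HFD against control mRNA numbered 2, and 41 with DESeq2, 6 without the filter, 1 with the 6 libraries compared and 1 without TMM scaling. In HFD against control RNC 1 gene was called, and 33 with DESeq2 and 32 with the 6 libraries compared. The 368 genes of HFD+LYC against HFD mRNA became 1491 with DESeq2 and 135 without TMM scaling, and the 701 against control became 1628 and 384. With the 6 libraries compared, 1790 genes and 4 serpins were called in HFD+LYC against HFD RNC, and 2032 genes and 3 serpins against control. The ratio in HFD against control gave 1 gene with DESeq2. RNC against mRNA in control livers gave 525 genes with RLE size factors, 2182 with DESeq2 and 2024 without TMM scaling.

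With the replicate block, 1457 genes were called in HFD+LYC against HFD mRNA and 1425 against control, 4 serpins in HFD+LYC against control RNC, and 2 genes for RNC against mRNA in control livers. In HFD+LYC against HFD RNC 6 of 9 serpins were called with the block, and Serpina1a (adjusted p = 0.0606), Serpina3k (adjusted p = 0.0702) and Serpina3m (adjusted p = 0.116) were not (edgeR). The numbers pair the mRNA and RNC libraries of a liver, but are not shown to pair livers of different diets: the deviations of same-numbered libraries correlated at over 0.1 in 7 of 9 mRNA pairs (-0.442 to 0.488) and 2 of 9 RNC pairs (-0.0741 to 0.357). Those of the 2 libraries of a liver did so in 3 of 9 (-0.0419 to 0.561).

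Signs reversed for Serpina3n in the ratio of HFD against control, at 0.034 with RLE size factors and with DESeq2, 0.023 with the replicate block and 0.085 without TMM scaling. Without TMM scaling they also reversed for Serpina3n in HFD+LYC against HFD mRNA (0.0053), Serpina1b in HFD against control RNC (0.034), Serpina1e in HFD+LYC against control RNC (-0.17), and Serpina3n (-0.47) and Serpina6 (-0.064) in RNC against mRNA. The cause was not tested.

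Leaving out each liver in turn gave 1 to 3 genes in HFD against control mRNA, 0 to 2 in RNC, 66 to 606 and 91 to 952 in HFD+LYC mRNA against HFD and control, 1289 to 2931 and 1121 to 2734 for the ratios, and 0 to 1527 for RNC against mRNA. In HFD+LYC RNC the genes called were 2107 to 4633 against HFD and 2103 to 4605 against control. Serpins called ranged over 4 to 9 and 2 to 8 in HFD+LYC RNC against HFD and control, and 0 to 8 and 0 to 6 for the ratios. In both RNC comparisons the counts of serpins and of all genes were largest without HFD+LYC replicate 2. Log2 changes that crossed 0 ranged in HFD against control mRNA over -0.82 to 0.29 for Serpina1a, -0.31 to 0.37 for Serpina1b, -0.45 to 0.15 for Serpina1c, -0.36 to 0.46 for Serpina1d, -0.75 to 0.083 for Serpina3k and -0.029 to 0.85 for Serpina3m; in RNC over -0.29 to 0.0053 for Serpina1d and -0.37 to 0.42 for Serpina3m; in HFD+LYC against HFD mRNA over -0.54 to 0.22 for Serpina1c, -0.022 to 0.97 for Serpina1e, -0.73 to 0.18 for Serpina3m, -0.37 to 0.22 for Serpina3n and -0.49 to 0.63 for Serpina6; against control mRNA over -0.67 to 0.088 for Serpina1c, -0.19 to 0.43 for Serpina3m and -0.067 to 0.48 for Serpina3n. They were -0.79 to 1.27 for Serpina1e in HFD+LYC against control RNC. For the ratio in HFD against control they were -1.11 to 0.11 for Serpina1a, -0.50 to 0.20 for Serpina1b, -0.48 to 0.16 for Serpina1c, -0.76 to 0.14 for Serpina1d, -1.02 to 0.14 for Serpina3m, -0.32 to 0.45 for Serpina3n and -0.28 to 0.33 for Serpina6. Of the values of single genes in these fits, 667 kept direction and call, 97 lost and 5 gained it, and 41 reversed.

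The lowest count of a serpin in any library was 233 reads, of Serpina3m. The 3 livers per diet and the reads that copies can share also limit the precision.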
